A study of Mus musculus with 21 samples.

Results

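Protocadherins are the largest group of the cadherin superfamily of adhesion proteins, and 71 of the 23827 gene rows in the deposited expression tables carried a symbol beginning with Pcdh. Of these 71 members, 59 belong to the clustered protocadherins (15 alpha, 22 beta and 22 gamma genes, all on the plus strand of chromosome 18), and 12 are non-clustered genes spread over the genome. Members were chosen by symbol, with earlier results of these data known. Where a symbol occurred more than once, the row with the most reads was kept. RNA had been sequenced from embryonic day 14.5 mice, 7 groups of 3 samples each, 21 in all. Ribosome-bound RNA (the translatome) was isolated from cells that carry an mCherry-tagged ribosomal protein Rpl10a, and total RNA (the transcriptome) was sequenced for the whole organs. Counts summed over genes ranged from 21760652 to 79231692 per sample, with a median of 43190754.

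All groups carried a copy of Gt(ROSA)26Sor-mCherry-Rpl10a, an allele that goes back to a single targeted ES cell clone and is switched on by Cre. The brain and kidney transcriptomes and translatomes came from Sox2Cre+/-;Gt(ROSA)26Sor-mCherry-Rpl10a+/- embryos, in which Sox2Cre acts in the epiblast and so tags the cells of the whole embryo. The brain EC and kidney EC (endothelial cell) translatomes came from Cdh5CreERT2+/-;Gt(ROSA)26Sor-mCherry-Rpl10a+/- embryos, where tamoxifen activates Cre in cells that use the promoter of Cdh5, the endothelial cadherin. The Emx1 translatome came from Emx1Cre+/-;Gt(ROSA)26Sor-mCherry-Rpl10a+/- embryos and represents the Emx1 lineage of the dorsal forebrain. Brain stands for the forebrain with part of the diencephalon, and a sample could hold the organs of more than a single embryo.

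In neurons, each clustered protocadherin is transcribed from its own promoter, and a random choice among these promoters, which depends on the looping factors CTCF and cohesin, gives each cell its own set of surface proteins. A protein binds the same protein on another cell, which lets neurites of a neuron recognise and avoid each other. An alpha or gamma messenger joins a variable first exon, which encodes the extracellular part, to constant exons shared by its whole cluster, whereas a beta gene has a single exon. The last members of the alpha and gamma clusters, the C-type members (Pcdhac1, Pcdhac2, Pcdhgc3, Pcdhgc4 and Pcdhgc5), are known to escape the random choice. The non-clustered members are mostly delta protocadherins, in a first subgroup (Pcdh1, Pcdh7, Pcdh9 and Pcdh11x) and a second subgroup (Pcdh8, Pcdh10, Pcdh17, Pcdh18 and Pcdh19), of which several recruit the actin-regulating WAVE complex. Pcdh12 is an endothelial protocadherin, once named VE-cadherin-2, and Pcdh15 forms the tip links of inner ear hair cells.

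The promoters of 3 non-clustered members are shown because these members, all of the second delta subgroup, were highest in 3 different groups, as described further on: Pcdh10 in brain, Pcdh17 in the kidney EC translatome and Pcdh18 in whole kidney. They were chosen after the values were seen. Each line gives the 250 bases before the RefSeq gene start (GRCm38.p6), read in the direction of transcription, with CG dinucleotides in capitals. The windows lie at chr3:45378148-45378397 (plus strand) for Pcdh10, chr14:84443313-84443562 (plus strand) for Pcdh17 and chr3:49757317-49757566 (minus strand) for Pcdh18.
Pcdh10: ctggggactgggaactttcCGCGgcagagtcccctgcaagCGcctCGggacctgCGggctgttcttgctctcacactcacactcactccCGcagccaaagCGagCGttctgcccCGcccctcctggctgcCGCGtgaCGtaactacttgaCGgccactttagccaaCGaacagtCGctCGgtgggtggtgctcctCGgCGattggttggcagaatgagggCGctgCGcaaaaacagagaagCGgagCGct
Pcdh17: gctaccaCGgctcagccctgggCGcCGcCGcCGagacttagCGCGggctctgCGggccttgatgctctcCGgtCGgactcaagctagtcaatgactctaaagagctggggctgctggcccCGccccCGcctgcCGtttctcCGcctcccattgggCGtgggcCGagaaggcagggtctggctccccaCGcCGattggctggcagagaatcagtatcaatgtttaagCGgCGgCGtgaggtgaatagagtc
Pcdh18: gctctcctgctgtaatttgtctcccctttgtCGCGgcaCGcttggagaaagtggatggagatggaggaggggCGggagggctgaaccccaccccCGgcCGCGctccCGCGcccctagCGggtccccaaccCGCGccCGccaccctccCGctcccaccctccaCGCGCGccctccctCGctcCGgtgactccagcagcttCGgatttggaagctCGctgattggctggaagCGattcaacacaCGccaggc
The windows held 22 CG in Pcdh10, 21 in Pcdh17 and 23 in Pcdh18, and 14.8%, 16.3% and 13.3%, respectively, of all 32851 promoters in the table held as many. Over the 10 entries found for 9 members the median was 17, against 6 over all promoters. The 3 promoters thus shared a high CG content. That their genes were high in different groups followed from how they were chosen. The other members with an entry held fewer CG, with 18 in Pcdh9, 16 in Pcdh19, 11 in Pcdh8, 7 in Pcdh7, 6 in Pcdh15 and 3 in Pcdh20.

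Because the constant exons could not assign a read to a single alpha or gamma gene, the length behind each value was recovered from its count and its RPKM (reads scaled to the length of the gene and to the mapped reads of the library). For 13 alpha rows this length was 2364.9 to 2582.7 bases, between 0.853 and 1.009 of the annotated variable exon (median 0.966), although the later exons add 2860 bases. For all 22 gamma rows it was 2383.1 to 2984.9 bases, 0.921 to 1.041 of the variable exon (median 0.987), with 2119 bases in the later exons. The rows thus counted variable exons, not constant exons. Over 15083 other rows with a single transcript the same length was 1.0053 times (median) the annotated transcript. A pair of alpha rows could not be used for levels. Pcdha4 had a recovered length of 52.5 bases and Pcdha4-g had no reads in any sample, so that alpha sums are given over 13 members. Pcdha4, with few reads, stayed among the alpha genes tested and ordered by place wherever it had reads. Variable exons also resemble each other. The share of 50-base windows found in another clustered member had a median of 15.1% in alpha, 4.27% in beta and 0.73% in gamma. The alpha median covered all 15 rows, with Pcdha4 and Pcdha4-g. Shares over 10% were found in 13 alpha, 5 gamma and 2 beta genes, such as Pcdhgb2 (17.89%), Pcdhgb1 (16.85%) and Pcdhb12 (11.99%). Values of single genes are uncertain to the extent of their share, above all in alpha.

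The alpha genes were expressed in the brain groups and nearly absent from the kidney groups. Their summed RPKM was 17.9, 17.6 and 18.6 in the brain transcriptome, 16.2, 18.0 and 17.8 in the brain translatome and 18.7, 17.5 and 19.2 in the Emx1 translatome. It was 7.18, 6.02 and 7.20 in the brain EC translatome, and between 0.062 and 0.365 in the 9 kidney samples. These kidney sums rested on 35, 36 and 22 reads in the transcriptome, 17, 17 and 7 in the translatome and 10, 5 and 10 in the kidney EC translatome. The groups with whole brain or Emx1 lineage overlapped each other, the brain EC samples lay below them and every kidney sample lay below the brain EC samples. Pcdhac2, the C-type alpha member known for the tiling of serotonergic axons, was the most abundant alpha gene, at 4.15, 4.40 and 5.05 RPKM in the brain translatome and 1.37, 1.09 and 1.15 in the brain EC translatome. In the kidney translatome it had 3, 1 and 1 reads. Pcdhac1, the other C-type member, had 103, 73 and 70 reads in the brain translatome and 0 in each of the 6 kidney translatome and kidney EC samples, which allows up to 3 reads per sample.

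The gamma genes gave the highest sums of the clustered classes, and a single gene, Pcdhgc3, carried much of them. Pcdhgc3 encodes a C-type member whose cytoplasmic part is known to bind Axin1, a component of Wnt signalling. It stood at 60.5, 56.8 and 60.9 RPKM in the brain transcriptome, 70.3, 76.2 and 74.4 in the brain translatome, 91.9, 94.2 and 98.0 in the brain EC translatome and 69.7, 65.4 and 68.6 in the Emx1 translatome. In kidney it stood at 55.8, 56.6 and 53.2 in the transcriptome, 60.1, 58.3 and 56.3 in the translatome and 69.0, 67.6 and 70.2 in the kidney EC translatome. By RPKM its range over all 21 samples was therefore narrow, from 53.2 to 98.0, with the brain EC samples highest. The tests on counts, given further on, still separated several of the groups. The other 21 gamma genes together differed far more, from 92.0 ± 5.3 (SD, n = 3) in the brain transcriptome and 83.2 ± 4.8 in the brain translatome to 58.8 ± 5.6 in the brain EC translatome and 32.4 ± 1.9 and 32.5 ± 1.7 in the kidney and kidney EC translatomes. Pcdhgc3 thus made up 38.5% to 39.7% of the gamma sum in the brain transcriptome, 60.4% to 64.2% in the brain EC translatome and 66.8% to 68.6% in the kidney EC translatome.

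The beta genes were low, with summed RPKM of 28.5 ± 2.1 in the brain transcriptome, 25.1 ± 2.8 in the brain translatome, 27.1 ± 1.6 in the brain EC translatome and 18.9 ± 2.0 in the Emx1 translatome. In kidney the sums were 19.0 ± 1.2 in the transcriptome, 18.2 ± 0.8 in the translatome and 16.4 ± 0.9 in the kidney EC translatome. The most abundant beta genes were Pcdhb17, Pcdhb22 and Pcdhb20, at 3.77, 1.70 and 2.11 RPKM on average in the brain translatome and 2.67, 2.03 and 1.39 in the kidney translatome. The 12 non-clustered genes summed to 153 ± 6.2 in the brain EC translatome and 113 ± 2.7 in the kidney EC translatome, against 88.2 ± 5.0 and 54.1 ± 3.5 in the translatomes of the whole organs. The order of the groups by RPKM and by counts scaled for library composition was the same for the alpha and the non-clustered genes. It was not for beta and gamma, where the brain EC translatome moved from rank 2 to rank 1. For beta the kidney EC translatome moved from rank 7 to rank 5, above both whole-kidney groups. For gamma the brain translatome moved from rank 1 to rank 3. The plot of class sums shows these levels for each sample.

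**Figure D1:**
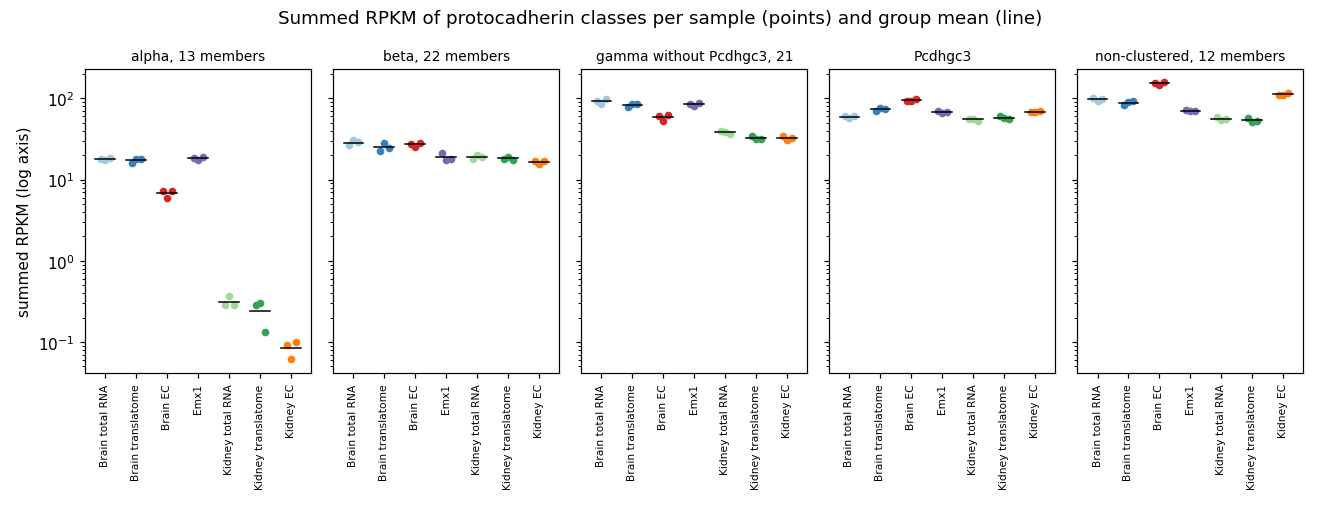
Summed RPKM (log axis) of 13 alpha genes, 22 beta genes, 21 gamma genes without Pcdhgc3, Pcdhgc3 alone and 12 non-clustered genes, with a point for each of the 3 samples of the 7 groups and a line at the group mean. Alpha sums lie between 6.02 and 19.2 in brain groups and at or below 0.365 in kidney groups, whereas Pcdhgc3 stays within 53.2 to 98.0 in all samples.

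Whole brain was first compared with whole kidney, in total RNA and in the translatome, with edgeR's quasi-likelihood test. A gene is said to have differed where its Benjamini-Hochberg adjusted p was under 0.001, and fold changes are given on the log2 scale with their standard error (SE). In the transcriptome 53 of 70 tested members were higher in brain and 2 were lower, a share of 78.6% against 53.5% of all tested rows (27.2% higher and 26.3% lower). In the translatome 50 of 70 were higher and 2 were lower, which is 74.3% against 53.4% of all rows (27.2% higher and 26.2% lower). Among the clustered members every difference was in the direction of brain. In the translatome these were 11 of 14 alpha, 9 of 22 beta and all 22 gamma genes, and in the transcriptome 12, 12 and 20. Without brain translatome replicate 1 the translatome counts were 11, 4 and 16, and with scaling to total counts 11, 6 and 19. Without brain transcriptome replicate 2 the 12 beta genes of the transcriptome were 7. The beta genes with the largest differences in the translatome were Pcdhb10 (log2 fold change 2.06, SE 0.24, adjusted p = 2.9e-06) and Pcdhb4 (1.57, SE 0.27), which passed no longer without brain translatome replicate 1 (adjusted p = 0.00101). Among gamma genes they were Pcdhga2 (2.33, SE 0.19) and Pcdhgc4 (2.29, SE 0.15, adjusted p = 7.8e-09). Pcdhgc4 is the C-type member known to be needed for the survival of cortical interneurons. Pcdhgc5, the remaining C-type gamma member, was higher by 1.09 (adjusted p = 0.00046), but DESeq2 did not call it (adjusted p = 0.00106). In edgeR, scaling to total counts also took the call (0.90, adjusted p = 0.00211). With the lowest count of its class subtracted the difference was 0.29 (adjusted p = 0.615). That step removes a gene's own variable-exon reads and weighs most on genes with few reads, so it cannot decide on the difference. The smallest gamma difference was that of Pcdhgc3 (0.54, SE 0.05, adjusted p = 7.1e-07). In total RNA its 0.30 (SE 0.05) fell to 0.11 (adjusted p = 0.024) when counts were scaled to totals only, which lowers the median of all rows by 0.18.

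Among the non-clustered members, Pcdh10, which guides axons and recruits the WAVE complex, showed the widest gap between the organs. It measured 23.8, 20.8 and 22.5 RPKM in the brain transcriptome and 21.9, 22.9 and 24.8 in the brain translatome. In kidney it measured 0.524, 0.277 and 0.470 in the transcriptome and 0.795, 0.403 and 0.525 in the translatome. The length behind its RPKM varied between samples, but no kidney sample came near a brain sample, and the fitted difference was 63.3-fold in total RNA and 46.6-fold in the translatome (adjusted p = 1.4e-11 and 7.2e-14). Pcdh8, the activity-regulated arcadlin, was 13.3, 14.8 and 13.7 RPKM in the brain translatome and 1.84, 1.54 and 1.47 in the kidney translatome (log2 fold change 3.32, SE 0.10, adjusted p = 1.9e-12). The translatome difference was 3.00 (SE 0.23) for Pcdh11x, an X-linked first-subgroup member, 2.78 (SE 0.15) for Pcdh9 of the same subgroup, 2.45 (SE 0.22) for Pcdh20 and 2.12 (SE 0.18) for Pcdh15. For Pcdh19, the X-linked gene whose mutation causes an epilepsy, it was 1.25 (SE 0.09), and for Pcdh1, which is best known from airway epithelium, 1.00 (SE 0.08). All of these differed in total RNA too. Pcdh17, an axonal and presynaptic member, was higher in brain total RNA (0.64, SE 0.08, adjusted p = 2e-05) but did not pass in the translatome (0.35, SE 0.10, adjusted p = 0.00792).

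Pcdh12 and Pcdh18 went the other way. Pcdh18, known to bind the adaptor Dab1, was 7.73, 6.94 and 7.24 RPKM in the brain translatome and 23.9, 20.9 and 20.0 in the kidney translatome. All kidney samples were above all brain samples (log2 fold change -1.36, SE 0.07, adjusted p = 1.1e-09). Pcdh12 was 2.34, 2.56 and 2.23 RPKM in the brain translatome and 6.08, 6.15 and 6.29 in the kidney translatome, again without overlap (-1.18, SE 0.09, adjusted p = 2.8e-08). The summed RPKM of 12 endothelial marker genes, 11 of which were lower in brain, was 152 to 173 in the brain translatome and 446 to 480 in the kidney translatome. Of 6 mural markers 5 were lower in brain as well (median -1.33), all 7 kidney markers were lower (median -6.19) and all 8 neural markers were higher (median 8.31). In bulk samples fewer cells of a type and less RNA per cell cannot be told apart, and how far the marker difference carries that of Pcdh12 was not tested. Pcdh7, the brain-heart protocadherin, did not pass in either RNA fraction (0.06, SE 0.08, and 0.04, SE 0.07), although its RPKM was higher in kidney total RNA (6.70 against 4.98), with a shorter gene length behind the kidney values. The plot of the non-clustered genes sets these patterns side by side.

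**Figure D2:**
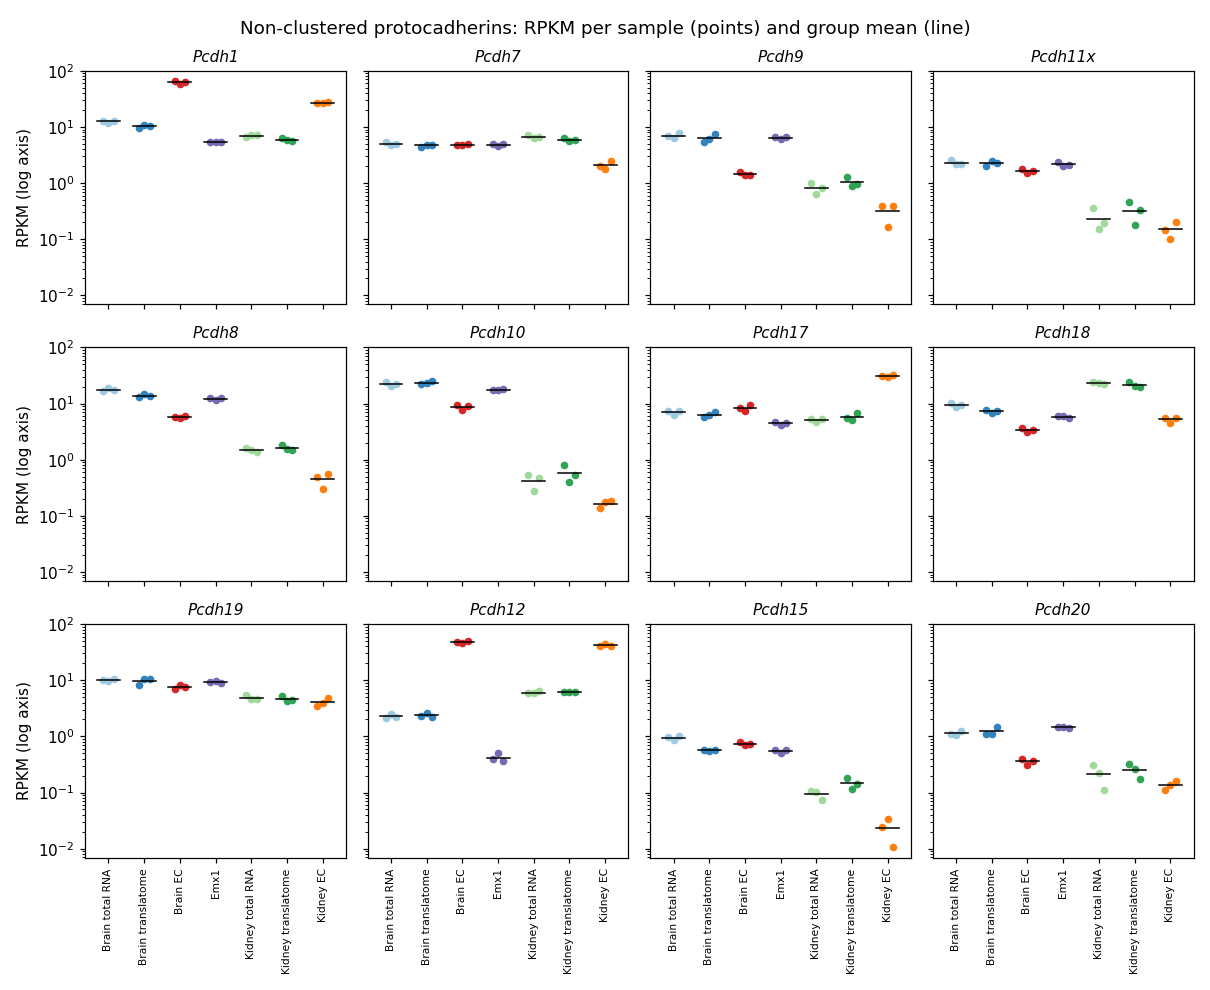
RPKM (log axis) of the 12 non-clustered protocadherins, a panel for each gene, with a point for each of the 3 samples of the 7 groups and a line at the group mean. Pcdh12 and Pcdh1 are highest in both EC translatomes, Pcdh17 in the kidney EC translatome (29.7 to 33.0), Pcdh18 in whole kidney (20.0 to 24.2) and Pcdh10 and Pcdh8 in brain.

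The translatome was then compared with the transcriptome of the same organ, to see which protocadherin messengers were over- or under-represented there. Few were. The paper does not exclude that such differences come partly from biases of the method, such as tagging that varies between cell types. In brain 3 of 70 members differed, a share of 4.3% against 37.1% of all rows (18.6% higher and 18.5% lower). Pcdhgc3 was higher in the translatome (log2 fold change 0.34, SE 0.05, adjusted p = 6.4e-05), with its 3 translatome samples all above the transcriptome samples. Of 12 endothelial markers 5 were higher and 0 lower in the same comparison (median 0.44). Neural markers gave 2 higher and 1 lower of 8 (median 0.04), and ventral forebrain markers 1 higher and 3 lower of 5 (median -0.26). How far cell composition carries the Pcdhgc3 difference was not tested. Pcdh15 was depleted, from 0.989, 0.850 and 1.02 RPKM in the transcriptome to 0.583, 0.543 and 0.581 in the translatome (-0.93, SE 0.11, adjusted p = 3.8e-06). Pcdh8 was depleted by less (-0.32, SE 0.06, adjusted p = 0.00059) and lost the call without brain transcriptome replicate 2 (adjusted p = 0.00124) or brain translatome replicate 1 (0.00212) or 3 (0.00192). With the pairing of the libraries in the model, Pcdh18 (-0.33, adjusted p = 1.7e-05) and Pcdh1 (-0.25, adjusted p = 0.00097) were depleted as well, in a model that called 45.9% of all rows. In kidney 0 of 69 members differed, against 30.7% of all rows. There 9 members had an unadjusted p under 0.05 in edgeR, 1 of them higher, and DESeq2 called 0. With the pairing 4 members were depleted in the kidney translatome, where the same model called 49.1% of all rows. These were Pcdhgc5 (-0.80, adjusted p = 0.000148), Pcdhgb2 (-0.48, adjusted p = 0.000886), Pcdh1 (-0.23, adjusted p = 0.00022) and Pcdhgb6. That fit took the spread of each gene from all rows, not from its own samples. The effect differed between the organs only for Pcdh15, by -1.49 (SE 0.24, adjusted p = 0.00035), where 6.47% of all rows differed (2.35% higher and 4.12% lower). Its kidney values rested on 23 to 55 reads per sample, and the difference did not pass without brain transcriptome replicate 3 (adjusted p = 0.00104), kidney transcriptome replicate 2 (0.00102) or kidney translatome replicate 1 (0.00176).

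In the brain EC translatome, compared with the brain translatome, 12 of 70 members were higher and 16 lower, together 40.0% against 46.2% of all rows (24.8% higher and 21.4% lower). All 12 endothelial markers were higher (median log2 fold change 4.58), with a summed RPKM of 2925 to 3016 against 152 to 173. Of 8 neural markers 7 were lower (median -1.88), with a summed RPKM of 409 to 526 against 2365 to 2375, so that neural RNA was reduced but still present. Mural cell markers gave 2 higher and 4 lower of 6 and microglial markers 2 lower of 4. Kidney markers, low in brain (summed RPKM 13.3 to 13.5), gave 2 higher of 7. Pcdh12 rose most, to 47.7, 46.2 and 50.8 RPKM, a 24.8-fold difference (log2 fold change 4.63, SE 0.08, adjusted p = 4.8e-13). It is encoded on chromosome 18 (38267089 to 38284357, minus strand, 4 exons, GRCm38). Pcdh1, its neighbour (38196694 to 38209762, minus strand), rose from 9.76, 10.8 and 10.6 to 64.8, 59.2 and 62.0 RPKM, which was 7.31-fold (2.87, SE 0.07, adjusted p = 1.8e-12). It was the most abundant non-clustered member in the brain EC translatome. Both genes were above their whole-brain values in every sample, without overlap.

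Pcdh17 and Pcdh15 also rose in the brain EC translatome, by less. Pcdh17 went from 5.75, 6.38 and 6.96 to 8.18, 7.50 and 9.61 RPKM (0.70, SE 0.10, adjusted p = 3.2e-05). This call was lost without brain translatome replicate 1 (0.63, adjusted p = 0.00109) and with scaling to total counts (0.40, adjusted p = 0.0023). Pcdh15 was 0.794, 0.697 and 0.746 RPKM against 0.583, 0.543 and 0.581 (0.90, SE 0.11, adjusted p = 1.2e-05). Its rise in RPKM was smaller than this fitted change, which came from counts scaled for library composition. The length behind its RPKM was 10484.7 to 10616.8 bases in brain EC and 8520.1 to 9484.5 in the brain translatome. Among non-clustered members the largest falls were those of Pcdh9 (-1.83, SE 0.12), Pcdh20 (-1.47, SE 0.16) and Pcdh10 (-1.07, SE 0.08), followed by Pcdh8 (-0.96, SE 0.08) and Pcdh18 (-0.82, SE 0.09). Pcdh10 still measured 9.50, 7.77 and 9.07 RPKM in brain EC samples, and its samples did not overlap those of whole brain. Pcdh7 (0.22, SE 0.07, adjusted p = 0.018), Pcdh11x (-0.18, SE 0.10, adjusted p = 0.126) and Pcdh19 (-0.07, SE 0.10, adjusted p = 0.517) did not pass. The neural markers fell by 1.88 at the median, further than each of these genes. The part of neural RNA in the values that remained was not tested.

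The clustered classes split in the brain EC translatome. Of 14 alpha genes 6 were lower and 0 higher, led by Pcdha6 (-1.63, SE 0.21, adjusted p = 1.5e-05), Pcdhac2 (-1.62, SE 0.13, adjusted p = 1.4e-07) and Pcdhac1 (-1.56, SE 0.22). Without brain translatome replicate 1 the 6 alpha genes were 3, and without replicate 3 they were 4. The summed alpha RPKM was 2.54 times higher in whole brain than in brain EC. Of 22 gamma genes 4 were lower, Pcdhga11 (-1.15, SE 0.11, adjusted p = 9e-07) and Pcdhgc4 (-0.85, SE 0.10) most, and 2 were higher. Without brain translatome replicate 2 or 3, 2 gamma genes were lower and 1 higher. Pcdhgc3 was higher by 0.65 (SE 0.07, adjusted p = 1.4e-06), and kept this call with scaling to total counts. Of 22 beta genes 6 were higher and 1, Pcdhb9, was lower (-0.93). The highest rises were those of Pcdhb22, from 1.40, 2.05 and 1.66 to 3.94, 3.19 and 3.60 RPKM (1.37, SE 0.14, adjusted p = 1.9e-06), and Pcdhb18, from 0.855, 1.01 and 1.00 to 1.90, 1.79 and 2.24 RPKM (1.34, SE 0.13, adjusted p = 6.7e-07). Neither overlapped its whole-brain samples. Scaling to total counts shifted the median of all rows by -0.30 and the share of calls that were higher from 53.7% to 36.1%. It turned the 12 higher and 16 lower members into 8 and 25, with 9 alpha genes lower, 4 beta genes higher and 2 lower, and 1 gamma gene higher and 8 lower. No called member changed sign.

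The position of a beta gene in its cluster went with its change in brain EC. The 22 beta genes lie in numerical order from 37264938 to 37524479 on chromosome 18. Spearman's rho between place and log2 fold change was 0.84 over the 22 genes, given as a description because the genes share libraries and related sequences. A split before Pcdhb14 was chosen after the values were seen. All 9 genes from Pcdhb14 to Pcdhb22 had a positive change, from 0.50 to 1.37 (median 0.95), and 6 of them were higher. The 13 genes before it ranged from -1.62 to 0.11 (median -0.38), and 1 was lower. In summed RPKM the upstream genes were 11.2, 13.5 and 12.0 in the brain translatome and 8.18, 6.48 and 7.81 in brain EC, and the downstream genes 11.2, 14.5 and 12.9 against 19.2, 18.9 and 20.8. In the alpha and gamma clusters the same measure was -0.25 over 14 and 0.21 over 22 genes, and in the kidney EC comparison it was 0.55 for the beta genes. Between brain and kidney translatomes the beta order ran the other way, with rho -0.67. There 7 of the 13 upstream genes were higher in brain (median 1.22) and 2 of the 9 downstream genes (median 0.10). The brain EC, Emx1 and organ comparisons share the brain translatome samples. The plot of beta genes in cluster order shows the crossing.

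**Figure D3:**
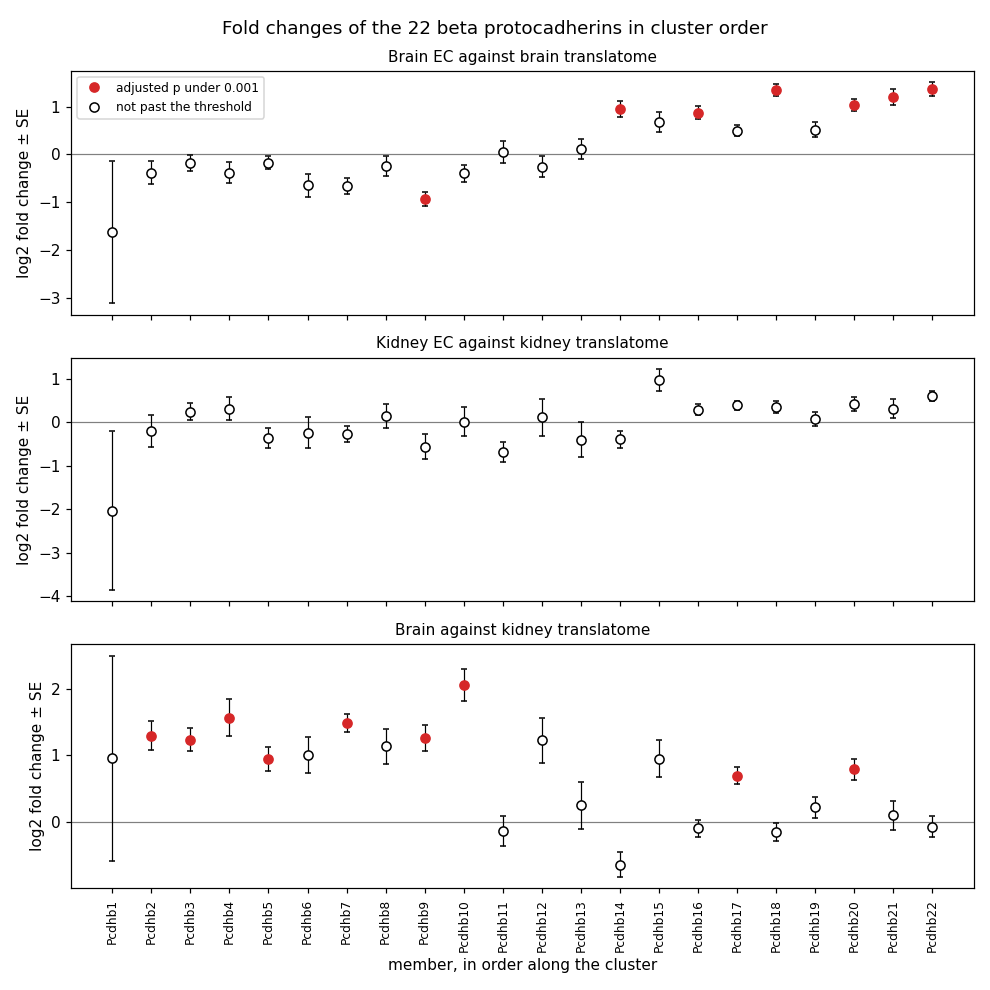
Log2 fold change with SE (vertical axis) of the 22 beta protocadherins, in their order along the cluster (horizontal axis), for brain EC against brain translatome, kidney EC against kidney translatome and brain against kidney translatome. Filled points had an adjusted p under 0.001. In the top panel all 9 genes from Pcdhb14 on lie above 0, and in the bottom panel the genes before it are mostly the higher ones.

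In the kidney EC translatome, compared with the kidney translatome, 6 of 66 members were higher and 5 lower, together 16.7% against 31.7% of all rows (16.7% higher and 15% lower). All 12 endothelial markers were higher (median 3.06), and of 7 kidney markers 6 were lower and 1 higher. All 4 microglial markers were lower, and the mural markers gave 2 higher and 4 lower. Pcdh12 rose from 6.08, 6.15 and 6.29 to 41.5, 43.4 and 40.8 RPKM, which was 8.68-fold (log2 fold change 3.12, SE 0.06, adjusted p = 3.5e-10). Pcdh17, on chromosome 14 (84443563 to 84539002, plus strand), rose from 5.47, 5.01 and 6.74 to 30.7, 29.7 and 33.0 RPKM, or 6.94-fold (2.79, SE 0.11, adjusted p = 4.3e-09). Pcdh1 rose from 6.34, 5.90 and 5.65 to 26.4, 27.1 and 27.6 RPKM, or 5.79-fold (2.53, SE 0.07, adjusted p = 4.7e-10). These 3 genes stood clear of the whole-kidney samples, and their rise kept its call with scaling to total counts.

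Other non-clustered members fell in the kidney EC translatome. Pcdh18 went from 23.9, 20.9 and 20.0 to 5.63, 4.47 and 5.61 RPKM (-1.69, SE 0.10, adjusted p = 1.6e-07), and Pcdh7 from 6.25, 5.66 and 5.94 to 2.00, 1.81 and 2.47 (-1.16, SE 0.12, adjusted p = 1.1e-05). Both groups were without overlap for each gene. Pcdh8 fell by 1.42 (SE 0.22, adjusted p = 0.00021) from 1.84, 1.54 and 1.47 RPKM, and passed no longer without kidney translatome replicate 1 (adjusted p = 0.00108) or 3 (0.00147). Pcdh10 (-1.24, SE 0.23, adjusted p = 0.0007) and Pcdh15 (-2.24, SE 0.42, adjusted p = 0.00093) had few reads, 34 to 100 and 4 to 41 per sample. Each lost its call when any of 5 of the 6 libraries was left out, with adjusted p up to 0.00366 for Pcdh10 and 0.00525 for Pcdh15. Pcdh9 (-1.33, SE 0.29, adjusted p = 0.00214), Pcdh11x (-0.73, SE 0.35), Pcdh20 (-0.55, SE 0.31) and Pcdh19 (0.17, SE 0.12) did not pass.

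In the kidney EC translatome few clustered members passed. None of 10 tested alpha and 22 beta genes passed in edgeR, although 0 alpha and 7 beta genes had an unadjusted p under 0.05, and DESeq2 called 0 and 1. Of 22 gamma genes 3 were higher. These were Pcdhgb2 (1.25, SE 0.16, adjusted p = 6.3e-05), Pcdhgc3 (0.60, SE 0.06, adjusted p = 4.6e-06) and Pcdhgb7 (0.52, SE 0.09, adjusted p = 0.0006). Scaling to total counts shifted the median of all rows by -0.37, left 21.7% of all calls higher where 52.7% had been, and took the calls from Pcdhgc3 (0.23, adjusted p = 0.0038) and Pcdhgb7 (0.15, adjusted p = 0.2), so that 4 members were higher and 7 lower. Pcdhgb7 also lost its call without each of the 6 libraries in turn. The plot of endothelial fold changes compares both organs.

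**Figure D4:**
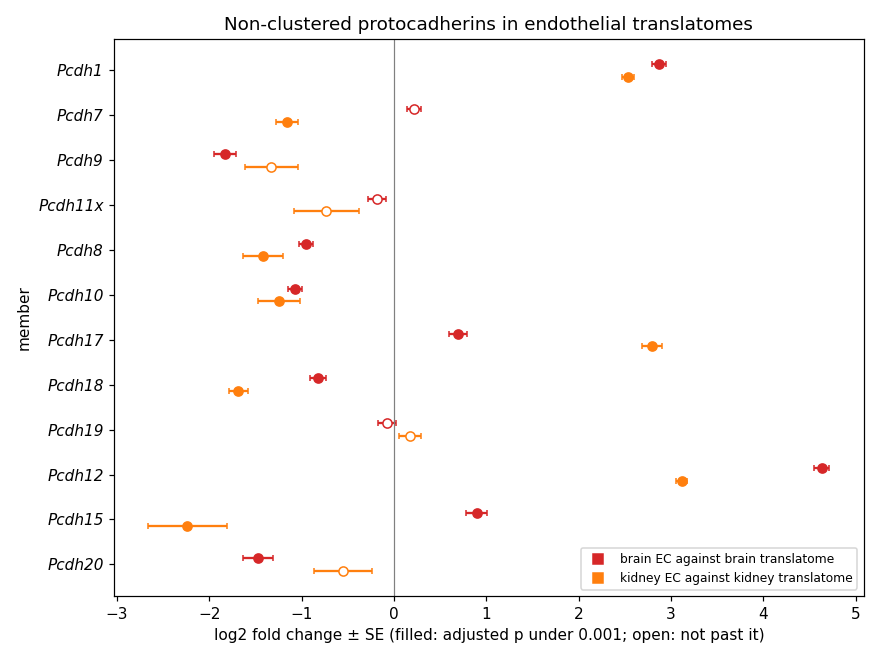
Log2 fold change with SE (horizontal axis) of the 12 non-clustered protocadherins in the brain EC translatome against the brain translatome (red) and in the kidney EC translatome against the kidney translatome (orange). Filled points had an adjusted p under 0.001. Pcdh12 and Pcdh1 lie far to the right in both organs, Pcdh17 only just in brain (0.70) and far in kidney (2.79), and Pcdh15 lies to the right of 0 in brain (0.90) and to the left in kidney (-2.24).

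Whether the endothelial change differed between the organs was tested as an interaction over 12 samples, where a positive value means a greater rise, or a smaller fall, in brain. Of 70 members 9 differed, which is 12.9% against 25.1% of all rows (16.5% positive and 8.6% negative). Pcdh17 differed by -2.07 (SE 0.16, adjusted p = 1.3e-08), Pcdhgc4 by -1.29 (SE 0.20) and Pcdhga11 by -1.28 (SE 0.17). Pcdh15 (3.17, SE 0.35), Pcdh12 (1.54, SE 0.09, adjusted p = 5.8e-10), Pcdh7 (1.41, SE 0.15), Pcdhb14 (1.36, SE 0.24), Pcdhb18 (1.02, SE 0.19) and Pcdh18 (0.89, SE 0.14) were positive. The kidney side of the Pcdh15 value rested on few reads, and the fall there lost its call when single libraries were left out. Over all rows the median of this measure was 0.155. With the replicate number as a block 10 members differed, the addition being Pcdhgb2 (-1.02, adjusted p = 0.000717). The 12 endothelial markers gave differences from 1.41 to 1.79 on the same measure. The difference of Pcdh12 lay inside their range, that of Pcdh1 (0.36, SE 0.09, adjusted p = 0.00354) below it and that of Pcdh17 on the other side of 0.

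When the EC translatomes were compared with each other, 42 of 69 members were higher in brain EC and 1 was higher in kidney EC, together 62.3% against 37% of all rows (20.1% higher and 16.9% lower). The exception was Pcdh17, 3.58-fold lower in brain EC (-1.84, SE 0.10, adjusted p = 5.5e-08), at 7.50 to 9.61 RPKM against 29.7 to 33.0. Pcdh1 was higher in brain EC by 1.24 (SE 0.07, adjusted p = 5.4e-08). Pcdh12 did not pass (0.25, SE 0.07, adjusted p = 0.00775), although DESeq2 called it (adjusted p = 0.000914), as did a fit of all 21 samples (0.36, adjusted p = 1.8e-05). Pcdh18 did not pass either (-0.59, SE 0.12, adjusted p = 0.00107), but was lower in brain EC with the replicate number as a block (adjusted p = 0.00023). That pairing was inferred from correlations between the samples. Pcdh10 (5.63, SE 0.11), Pcdh15 (5.17, SE 0.26), Pcdh8 (3.68, SE 0.18), Pcdh11x (3.45, SE 0.20), Pcdh9 (2.18, SE 0.25), Pcdh20 (1.44, SE 0.22), Pcdh7 (1.32, SE 0.12) and Pcdh19 (0.91, SE 0.12) were higher in brain EC. For Pcdh20 the call was lost without brain EC replicate 1 (adjusted p = 0.00139) or kidney EC replicate 1 (0.00107). Of the clustered genes 11 of 13 alpha, 7 of 22 beta and 15 of 22 gamma genes were higher in brain EC and none was lower in edgeR. The beta and gamma counts moved with single libraries. Without brain EC replicate 1 the counts were 11, 2 and 8, and without each other library but brain EC replicate 2 the beta count was 3 or 4. With the lowest class count subtracted, which removes reads of the variable exons themselves, 11 gamma genes were higher. The fit of all 21 samples called 12 beta genes. Among 52 clustered genes with an unadjusted p under 0.05, all 52 were higher, and DESeq2 called 38. In the same comparison all 8 neural markers were higher in brain EC (median 8.41), with summed RPKM of 409 to 526 against 12.2 to 14.0, of which Neurod6 was listed at 0 in kidney EC. The alpha sums were 6.02 to 7.20 and 0.062 to 0.100. The part of neural RNA in these differences was not tested. The lanes of the sequencer also went with the groups, so that lane and group cannot be told apart.

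The Emx1 translatome, compared with the brain translatome, differed in 4 of 70 members, 5.7% against 22.1% of all rows (9.2% higher and 12.8% lower), and all 4 were non-clustered and lower. Of all calls 41.7% were higher, and 29.9% with scaling to total counts, where 6 members were lower. Pcdh12 was 0.395, 0.496 and 0.368 RPKM against 2.34, 2.56 and 2.23 (log2 fold change -2.47, SE 0.12, adjusted p = 3.8e-10), and Pcdh1 was 5.42, 5.39 and 5.40 against 9.76, 10.8 and 10.6 (-0.88, SE 0.06, adjusted p = 2.2e-08). Both lay below every whole-brain sample. Pcdh17 (-0.46, SE 0.07, adjusted p = 0.00011) and Pcdh10 (-0.36, SE 0.06, adjusted p = 9.7e-05) were lower by less, and neither passed in a fit of all 21 samples (adjusted p = 0.00134 and 0.00488). All 12 endothelial markers were lower (median -3.83, summed RPKM 13.4 to 16.0 against 152 to 173), as were all 6 mural, all 4 microglial and all 5 ventral forebrain markers, while all 5 markers of the Emx1 lineage were higher. Of 58 clustered members 0 passed in edgeR, 23 had an unadjusted p under 0.05 (8 of them higher) and DESeq2 called 2. The alpha sum was 17.5 to 19.2 RPKM against 16.2 to 18.0. Of the 22 beta genes 21 had a negative change (median -0.35, against 0.00 over all rows), and their sum was 18.9 ± 2.0 against 25.1 ± 2.8.

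Genes around the protocadherins were counted from lists of known regulators and partners. Of 12 regulators of protocadherin promoters in the tables, 6 were higher and 0 lower in brain EC, where 24.8% of all rows were higher and 21.4% lower. The de novo DNA methyltransferase Dnmt3b (3.29) and the neuronal gene repressor Rest (1.72) rose most, and Ctcf itself, at 0.04, did not pass. Between brain and kidney translatomes 7 of the 12 were lower in brain, led by Rest (-2.62) and Dnmt3b (-2.08), against 26.2% of all rows, and in kidney EC 3 were higher and 1 lower, against 16.7% and 15% of all rows. The same shares apply to the counts that follow. Of 13 partners, mostly kinases and subunits of the WAVE complex, 6 were higher and 4 lower in brain EC, with Cyfip1 up (1.70) and its relative Cyfip2 (-1.38) and Wasf1 (-1.76) down. In kidney EC 5 were higher and 4 lower, led by the kinase Fyn (1.70). Among 22 classical and related cadherins 6 were higher and 11 lower in brain EC, 2 and 8 in kidney EC, and the endothelial Cdh5 rose in both (4.77 and 3.16). Of 8 large cadherins of the Fat, Dachsous and Celsr families 6 were higher in brain EC, led by Fat2 (2.73), and 1, Dchs1 (0.69), in kidney EC.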

How the data were processed

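The deposited tables gave, for each of 21 samples, a read count and an RPKM value per gene. According to the study's methods the authors mapped reads to the mouse genome (GRCm38, mm10) with the RUM pipeline and used rpkmforgenes with refGene transcripts from UCSC to obtain the values, so that the deposited counts are raw and the deposited RPKM values are scaled to gene length and to the mapped reads of a library. RPKM values served for levels, as deposited. The setting of that program for genes with several transcripts is not given in the sources used here.

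Counts were tested with edgeR 4.0.16 (R 4.3.3, quasi-likelihood, TMM scaling), on the 6 samples of each comparison (12 for a difference between organs), over all rows with at least 1 count, and p-values were adjusted over all of them (threshold 0.001). With 3 samples in a group the p-values measure the spread between these samples, which edgeR draws towards the spread over all rows. In the paired fit of kidney translatome and transcriptome the spread came from all rows alone. Differences between organs were interaction terms. Alternatives were DESeq2 1.42.0, other scaling factors, total counts, a filter of 10 counts in 3 samples, a single fit of 21 samples, the lowest count of a member's class subtracted, each sample left out, and the replicate number as a block. The subtraction was meant for reads of shared constant exons. Since the gamma rows counted variable exons, it took away reads of the genes themselves. Scripts were tested on simulated data. Members and lists were chosen with earlier results of these data known. Among non-clustered members all were named, and among alpha, beta and gamma the 3 with the highest mean RPKM, the C-type members and the 2 with the largest fold change past the threshold in each comparison. Others named (Pcdhb5, Pcdhb7, Pcdhb9, Pcdhb21, Pcdhgb5 and Pcdhgb6) were chosen after their values were seen.

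Same-numbered brain translatome and transcriptome samples came from the same tissue, as did those of kidney, and their deviations from the group means correlated over 15374 and 15231 rows (r 0.479 to 0.547 and 0.549 to 0.621). The brain EC and kidney EC samples of a number also correlated (0.161 to 0.225). They were taken as pairs on that ground, since the sample titles give only a number. Library totals limit precision for members with few reads, above all the alpha genes in kidney, and counting limits cover counting error only. Gene structures were taken from GENCODE annotation of GRCm38 and promoters from RefSeq. Marker and partner lists were compared by counts.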

Additional observations from a re-analysis of the deposited data

Results flagged for a closer look

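The same contrast differed between brain and kidney for 10 values in an interaction test. For the translatome against the transcriptome this was Pcdh15 alone (-1.49), lower in the brain translatome and not past the threshold in kidney. For the EC translatome against the organ translatome the difference, brain minus kidney, was 3.17 for Pcdh15, 1.54 for Pcdh12, 1.41 for Pcdh7, 1.36 for Pcdhb14, 1.02 for Pcdhb18, 0.89 for Pcdh18, -1.28 for Pcdhga11, -1.29 for Pcdhgc4 and -2.07 for Pcdh17. The value for Pcdhb18 no longer passed without brain translatome replicate 1 (0.94, adjusted p = 0.00133 in edgeR) or brain EC replicate 3 (0.92, adjusted p = 0.00102). The kidney side of the Pcdh15 value in the EC comparison rested on few reads. Over all rows the median of the EC difference was 0.155. These tests use the samples of the comparisons in the report.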

How the results depend on the processing

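Over 339 fold changes of single members, 4801 values were recomputed. Of these, 4655 stayed called or stayed uncalled, 95 lost the call and 51 gained it. Among values called before or after, 0 changed sign, and the sign of values uncalled in both fits was not followed. With the pairing in the model (replicate block), the number of members that differed went from 3 to 5 between brain translatome and transcriptome and from 0 to 4 in kidney. Between the EC translatomes the block left Pcdhb5, Pcdhb21 and Pcdhgb1 short of the threshold and added Pcdh18, Pcdhb7 and Pcdhgb5, 43 members in all as without it. Samples of the other comparisons shared only a number. There the block gave 29 members in brain EC against 28, 9 in kidney EC against 11, 4 in Emx1 against 4, 53 for the transcriptomes of brain and kidney against 55 and 52 for their translatomes against 52. DESeq2 gave 5 members for brain translatome against transcriptome. For the Emx1 translatome DESeq2 gave 7 members where edgeR gave 4, the subtraction of the lowest class count 7 and the fit of all 21 samples 2, and the cause was not tested. Leaving out a sample at a time gave 2 to 3 members for brain translatome against transcriptome, 0 in kidney, 49 to 55 and 41 to 52 for brain against kidney, 22 to 28 in brain EC, 7 to 10 in kidney EC (7 without kidney translatome replicate 1 or 3), 4 to 6 in Emx1, 30 to 43 between EC translatomes, 0 to 1 and 8 to 10 for the differences between organs. Low counts of alpha genes in kidney limit what could be detected there.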

Other observations

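For Pcdh7 the level and the test pointed to different readings. Its RPKM was 5.33, 4.71 and 4.89 in the brain transcriptome and 7.24, 6.33 and 6.52 in the kidney transcriptome, without overlap, while its counts did not differ (log2 fold change 0.06, adjusted p = 0.531 in edgeR). The length behind each RPKM value, recovered from counts, was 7951.4 to 8040.2 bases in the brain transcriptome, 6398.5 to 6583.0 in the kidney transcriptome and 7155.4 to 7338.0 in the brain EC translatome. The annotation holds transcripts of 8785 bases (3 exons) and 5611 bases (2 exons). Recovered lengths also varied between samples for Pcdh10, from 5185.6 to 8168.0 bases, and for Pcdh15, from 8520.1 to 11016.0 bases. RPKM of members with several transcripts thus carries a length that is not fixed. The use of transcripts was not measured directly.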
